A study of Mus musculus with 6 samples.

Results

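The heat shock genes described here are 10 genes of the cytosolic and mitochondrial heat shock response, among the 53618 named genes of a bulk RNA-seq table of mouse leukemia cells. They were listed by name (Hspa1a, Hspa1b, Dnajb1, Hsph1, Hsp90aa1, Hsp90ab1, Hspa8, Hspe1, Hspd1 and Bag3), and the list was selected on the normalized counts of Hspa1a, which varied widely from library to library in both groups. All 10 passed the filter on low values (10 or more normalized counts in no fewer than 3 libraries), as did 12298 genes in all. The spread of Hspa1a, and of Hspa1b, which shares long stretches of sequence with it, is therefore given as a description without a test.

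The study sorted GFP+Lin-c-Kit+ splenocytes from mice carrying Usp18+/f UBCER-Cre AE9a leukemia. AE9a, a shortened form of the AML1-ETO fusion, causes acute myeloid leukemia in mice. It was delivered by an MSCV-IRES-GFP retrovirus to fetal liver cells, and the leukemia cells were passed on to C57BL/6 recipients, with mice of 8 to 12 weeks used throughout the study. Once sick, the recipients received corn oil (3 libraries, Usp18+/f) or tamoxifen in corn oil at 100 mg/kg (3 libraries, Usp18+/Δ), and cells were taken 3 days after the first injection per the labels and after 3 injections per the methods, with 1 mouse per library. UBCER-Cre is a tamoxifen-activated recombinase that is expressed in all tissues, and the cells of both groups started with the floxed allele, the Cre and AE9a. No library had tamoxifen without the floxed allele, so tamoxifen itself and the loss of 1 Usp18 allele cannot be told apart.

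Heat shock proteins are chaperones that hold, fold and refold other proteins. In unstressed cells the transcription factor HSF1 is kept inactive, and when misfolded proteins accumulate it forms trimers that bind GAA and TTC repeats upstream of its target genes and raise their transcription. Some chaperones (Hspa8, Hsp90ab1) are abundant in every growing cell, whereas the inducible HSP70 genes Hspa1a and Hspa1b are low at rest and respond steeply to heat, proteotoxic stress and cell handling.

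The libraries held 19172471 to 23785143 recovered reads. Usp18, the gene to be deleted, was not lower under the tamoxifen label. It stood at 217, 214 and 176 normalized counts under the oil label and at 477, 329 and 284 under the tamoxifen label, so every direction below is between labelled libraries. Its log2 difference was 0.81 (limma adjusted p = 0.666), and 0.60 without the library labelled tamoxifen 1. Of all genes tested, 7.86% were higher in every tamoxifen library than in any oil library. The counts cover the whole gene, and reads of an intact and a deleted allele are not separated. The library labelled tamoxifen 1 stood apart, with a median correlation with the others of 0.913 (0.981 to 0.990 for the other libraries) and a mitochondrial share of reads of 0.00923% (1.01% to 1.56% elsewhere). How far a gene deviated in it followed GC content, with medians on the log2 scale of -1.86 over genes up to 40% GC and 0.889 over genes above 56% GC. Of the leukemia and progenitor markers, Kit, Runx1, Runx1t1, Myb, Gata2 and Spi1 were present in every library, whereas Ptprc (0.898 to 8.08 normalized counts), Mpo (0 to 20.2) and Cd33 (0 to 5.05) were at or near 0. Of the T cell markers 5 of 7 had 3 reads or fewer in every library, with Cd3e and Cd8a at 0, as were the B cell marker Ms4a1 and the neutrophil marker Ly6g. The summed markers of macrophages (8 genes, 97.4 to 234 in oil and 270.1 to 365 in tamoxifen), neutrophils (7 genes, 16.2 to 27.0 and 46.4 to 60.6) and B cells (6 genes, 13.5 to 27.9 and 50.0 to 57.5) were higher in all tamoxifen libraries, and erythroid genes (8 genes) summed to 45320 to 65520 and 50900 to 77080. The part of these differences in any result below was not tested.

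The inducible HSP70 genes lie side by side on the minus strand of chromosome 17, Hspa1b at 34956436 to 34959238 and Hspa1a at 34969190 to 34972156 (GRCm38). Their upstream sequences are shown because both copies carry the same GAA and TTC repeat at the same place. The 250 bases before each start (RefSeq, GRCm38.p6, minus strand, Hspa1a at chr17:34972157-34972406 and Hspa1b at chr17:34959239-34959488) are printed 5′ to 3′, with the units of the match in capitals.
Hspa1a: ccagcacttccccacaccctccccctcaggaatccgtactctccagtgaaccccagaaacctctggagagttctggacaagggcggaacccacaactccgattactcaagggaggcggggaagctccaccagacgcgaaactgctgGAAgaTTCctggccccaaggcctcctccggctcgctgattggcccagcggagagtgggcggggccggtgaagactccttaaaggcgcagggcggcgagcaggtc
Hspa1b: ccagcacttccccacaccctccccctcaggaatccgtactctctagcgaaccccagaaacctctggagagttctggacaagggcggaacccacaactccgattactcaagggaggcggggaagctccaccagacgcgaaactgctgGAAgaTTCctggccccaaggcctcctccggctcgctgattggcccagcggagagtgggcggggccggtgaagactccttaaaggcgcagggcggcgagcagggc
These stretches differed at 3 of 250 bases, and the match began 104 bases upstream of the start in both. Hspe1 and Hspd1, which encode the mitochondrial chaperonin pair HSP10 and HSP60, are read in opposite directions from neighbouring starts on chromosome 1. The region between held the longest run of such units found among these genes, shown with a few flanking bases (chr1:55088053-55088082, plus strand, 5′ to 3′, units in capitals).
Hspe1 and Hspd1: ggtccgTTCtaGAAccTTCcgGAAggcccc
The first unit lay 89 bases upstream of the Hspe1 start. The run is upstream of only 1 of the annotated Hspd1 starts, and lies inside an Hspd1 exon of the transcript from the other. Windows of 300 bases (250 before to 50 after a start) were at hand for 7 of the 10 genes, in 10 windows, and not for Hsp90aa1, Hsp90ab1 and Hspa8. Searched on both strands, GAANNTTC was in 7.86% of all 32851 promoter windows, TTCNNGAA in 8.52%, and either in 15.1%. The motif of 3 units, GAANNTTCNNGAA, which contains both shorter ones, was in 0.603% of all windows and in windows of 3 of the 7 genes (Hspe1, Hspd1 and Hsph1, in the last after the start). In Bag3 a GAANNTTC match began 43 bases into the transcript, and the windows of Dnajb1 held neither motif. These are matches of letters only.

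Hspa1a, one of the inducible HSP70 genes, spanned the widest range. Normalized counts were 146, 342 and 691 for oil 1, 2 and 3 and 106, 54.6 and 1.82 for tamoxifen 1, 2 and 3 (162, 355, 744, 83, 54 and 2 recovered reads). All tamoxifen libraries lay below all oil libraries, and within each group the libraries were spread apart. The library labelled oil 3 had 380 times the level of the one labelled tamoxifen 3 (95% exact interval 105 to 3140, counting error only), and 12.7 times that of the next lowest, tamoxifen 2. The low end therefore rests on 1 library with 2 reads: the span was 7.94 on the log2 scale with it and 3.64 without it. The SD within groups was 2.13 on the log2(value + 1) scale, rank 29 of the 12298 genes tested. The means were 393 ± 276 (SD, n = 3) in oil and 54.2 ± 52.1 (SD, n = 3) in tamoxifen, and the fitted log2 difference, tamoxifen minus oil, was -3.67. It was -4.71 without the library labelled tamoxifen 1 and -2.08 without tamoxifen 3, and -2.88 in edgeR and -2.86 in DESeq2. In bulk samples, fewer cells that express a gene and less RNA per cell cannot be told apart.

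Hspa1b, the second inducible copy, followed the same order of libraries over a narrower range except in tamoxifen 1. It had 1402, 3052 and 4372 normalized counts in the oil libraries and 1994, 739.5 and 206 in the tamoxifen libraries. The groups overlapped, because the library labelled tamoxifen 1 lay above oil 1, while tamoxifen 2 and 3 lay below all oil libraries. The library labelled oil 3 had 21.2 times the level of tamoxifen 3 (95% exact interval 18.5 to 24.3, counting error only). The within-group SD was 1.30 on the log2(value + 1) scale, rank 320. The log2 difference was -1.98, and it was -2.76 without the library labelled tamoxifen 1 and -1.13 without tamoxifen 3.

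**Figure D1:**
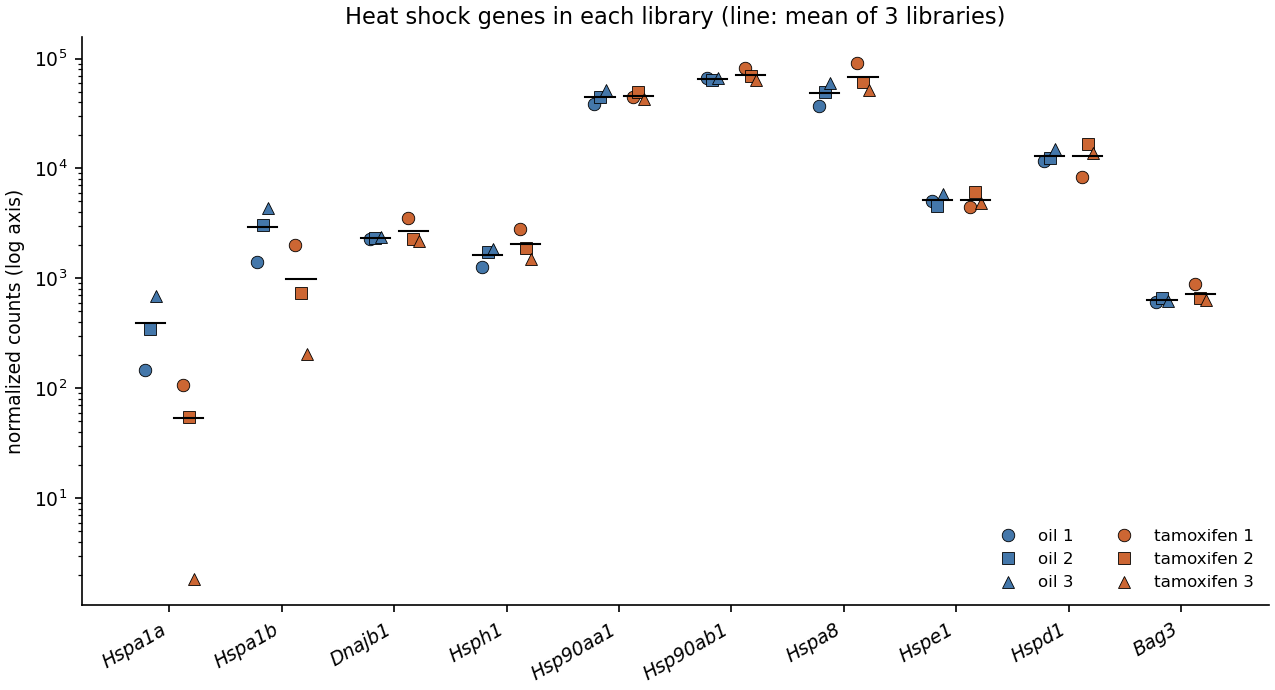
Normalized counts of the 10 heat shock genes in each library on a log axis, with oil libraries in blue, tamoxifen libraries in orange, symbols for the replicate number and a line at the mean of 3 libraries. Hspa1a runs from 1.82 to 691 and Hspa1b from 206 to 4372, whereas the points of each of the other genes lie close together.

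The share of Hspa1a among the reads of both copies is a description, since the list was selected on Hspa1a, and its intervals hold no difference between mice. Hspa1a took 9.40%, 10.1% and 13.6% of the reads of both copies in the oil libraries (95% exact binomial intervals 8.07% to 10.9%, 9.11% to 11.1% and 12.7% to 14.6%). In the tamoxifen libraries it took 5.05%, 6.87% and 0.873% (4.04% to 6.22%, 5.20% to 8.87% and 0.106% to 3.12%). The shares in the tamoxifen libraries were all lower than those in the oil libraries, with the narrowest gap between tamoxifen 2 and oil 1, whose intervals overlap, and the lowest share rests on 2 reads. The share is bounded by how reads are assigned. Over 3008 aligned columns the transcripts were 86.8% identical, with a longest shared run of 638 bases, and 61.9% of the 150-base windows of Hspa1a and 59.5% of those of Hspa1b did not occur in the other copy. Reads of a shared stretch cannot be assigned by sequence, and the level of each copy is uncertain to that extent. In addition, 564 exon bases of Gm20481, a gene on the opposite strand listed at 0 in all 6 libraries, lie inside the Hspa1a exon, and the strand setting of the counting is not given in the sources used here.

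**Figure D2:**
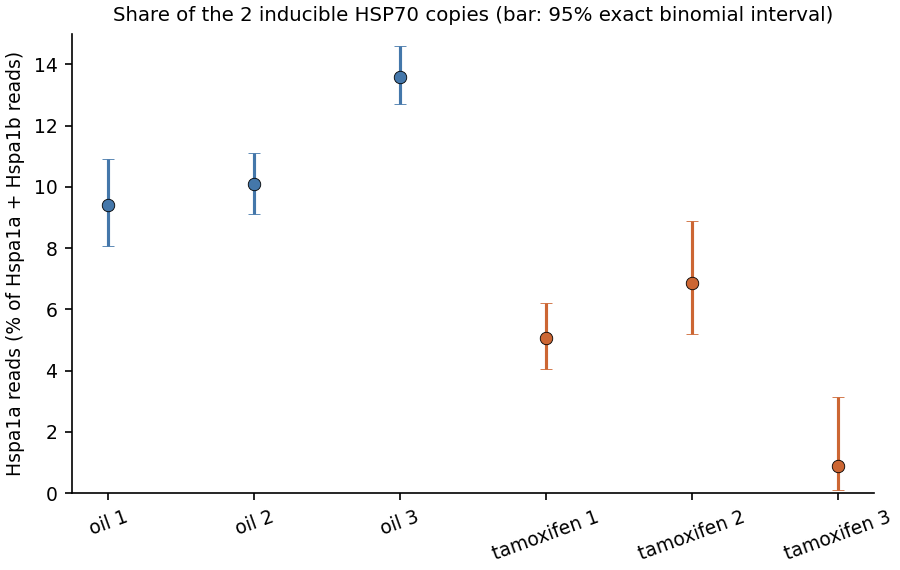
Hspa1a reads as a percentage of the Hspa1a and Hspa1b reads in each library, with 95% exact binomial intervals that cover counting error only. The oil libraries lie between 9.40% and 13.6% and the tamoxifen libraries between 0.873% and 6.87%.

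None of the 8 other genes differed between the groups by limma with Benjamini-Hochberg adjustment over all genes tested (adjusted p 0.666 to 0.997), where 0.00% of the 12298 genes were called. None of the 8 had an unadjusted p under 0.05 in limma, edgeR or DESeq2, against 550 genes (4.47%), 594 of 12340 (4.81%) and 886 of 24247 (3.65%). With any 1 library left out, again none of the 8 had an unadjusted p under 0.05 in limma, while 12.1% of all genes did without the library labelled tamoxifen 1. By adjusted p, edgeR called 0 genes and DESeq2 71 (0.293%). Over 17 other ways of processing the values, the adjusted p of these 8 genes ranged from 0.426 to 0.998. Their median log2 difference was 0.139, beside -0.0168 over all genes tested, and without the library labelled tamoxifen 1 these were 0.0671 and -0.0215. Hspa1a was the only one of the 10 genes whose groups did not overlap, which was the case for 17.6% of all genes tested (9.69% with tamoxifen lower).

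Hspa8, the constitutive HSP70 (HSC70) that does much of the folding of newly made proteins, had the largest difference of the 8. It had 36963, 49066 and 59636 normalized counts in the oil libraries and 91787, 61089 and 51662 in the tamoxifen libraries. The library labelled tamoxifen 1 was the highest of the 6 and tamoxifen 3 lay within the oil range. The log2 difference was 0.47 (SE 0.28, 95% interval -0.20 to 1.15, limma adjusted p = 0.666), and 0.24 without the library labelled tamoxifen 1. Per kilobase of transcript, Hspa8 exceeded Hspa1b 30.9, 18.8 and 16.0 times in the oil libraries and 53.9, 96.7 and 293 times in the tamoxifen libraries.

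The cytosolic HSP90 genes were the steadiest, with the lowest within-group SDs of the 10 (0.13 for Hsp90ab1 and 0.17 for Hsp90aa1 on the log2 scale, before any GC correction). Hsp90ab1, the constitutive HSP90 beta, had 66226, 63134 and 67047 normalized counts in oil and 81329, 68971 and 63910.1 in tamoxifen, with overlapping groups and a log2 difference of 0.12 (95% interval -0.27 to 0.50, limma adjusted p = 0.722), or 0.02 without tamoxifen 1. Hsp90aa1, the more stress-inducible HSP90 alpha, had 38451, 44266 and 51235 in oil and 44915, 49745 and 42643 in tamoxifen. All its tamoxifen values lay inside the oil range, and the log2 difference was 0.04 (95% interval -0.36 to 0.45, limma adjusted p = 0.904). The per-kilobase level of Hsp90ab1 was 2.24, 1.86 and 1.70 times that of Hsp90aa1 in oil and 2.36, 1.81 and 1.95 times in tamoxifen.

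The cochaperones of the HSP70 cycle likewise overlapped between the groups. Dnajb1 encodes the J-domain protein HSP40, which delivers clients to HSP70 and stimulates its ATPase. It had 2273, 2328 and 2396 normalized counts in oil and 3563, 2260.0 and 2189.8 in tamoxifen, so that the library labelled tamoxifen 1 lay above the oil libraries and the other tamoxifen libraries just below them. Its log2 difference was 0.16 (95% interval -0.36 to 0.67, limma adjusted p = 0.721), and -0.07 without tamoxifen 1. Hsph1 encodes HSP110, a nucleotide exchange factor of HSP70. It had 1266, 1732 and 1847 in oil and 2803, 1892 and 1499 in tamoxifen, with tamoxifen 3 inside the oil range, and a log2 difference of 0.32 (95% interval -0.33 to 0.98, limma adjusted p = 0.666), and 0.08 without tamoxifen 1. Bag3 encodes an exchange factor that links HSP70 to autophagy. It had 611, 668 and 620.3 in oil and 887, 659 and 628 in tamoxifen, where all but tamoxifen 1 lay inside the oil range. Its log2 difference was 0.18 (95% interval -0.27 to 0.62, limma adjusted p = 0.671), and 0.02 without tamoxifen 1.

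The mitochondrial chaperonin pair had nearly equal group means, 5113 ± 648 and 5126 ± 852 (SD, n = 3) for Hspe1 and 13013 ± 1714 and 12915 ± 4213 for Hspd1. Hspe1 had 5006, 4525 and 5807 normalized counts in oil and 4434, 6078 and 4866 in tamoxifen. The tamoxifen values reached beyond the oil range at both ends, and the log2 difference was -0.00 (95% interval -0.43 to 0.43, limma adjusted p = 0.997). Hspd1 had 11710.3, 12374 and 14955 in oil and 8359.8, 16672 and 13713 in tamoxifen, the lowest value being that of tamoxifen 1. Its log2 difference was -0.06 (95% interval -0.72 to 0.59, limma adjusted p = 0.916), and 0.22 without the library labelled tamoxifen 1. The per-kilobase ratio of Hspe1 to Hspd1 was 1.34, 1.14 and 1.22 in oil and 1.66, 1.14 and 1.11 in tamoxifen. Their exons share 112 bases on opposite strands, so that without a strand setting reads there cannot be told apart.

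**Figure D3:**
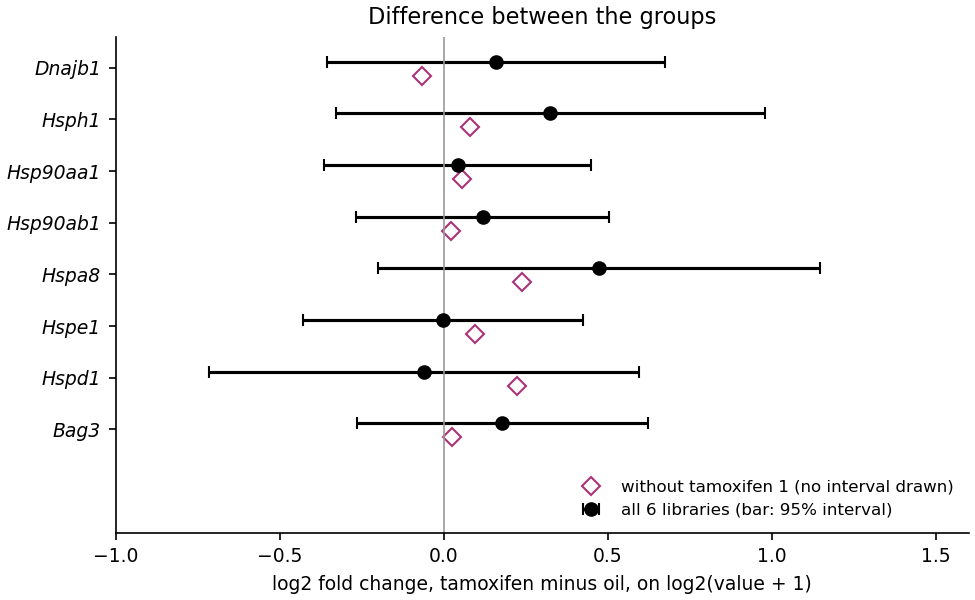
Log2 difference between libraries labelled tamoxifen and oil for the 8 heat shock genes other than the inducible HSP70 pair, with 95% intervals from limma on all 6 libraries (filled) and the value without tamoxifen 1 (open diamonds). Every interval includes 0, and without tamoxifen 1 the differences lie between -0.07 and 0.24.

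Per kilobase of the longest transcript, the levels in the oil libraries differed widely. Hsp90ab1 (25980 ± 819 normalized counts per kilobase, SD, n = 3), Hspa8 (20280 ± 4740) and Hsp90aa1 (13610 ± 1950) led, Hspe1 (6605 ± 837) and Hspd1 (5371 ± 707) followed, and the remaining genes were Hspa1b (1050 ± 531), Dnajb1 (778 ± 20.6), Hsph1 (425 ± 81.0), Bag3 (247 ± 11.9) and Hspa1a (132 ± 93.1). The oil libraries of neighbours in this order overlapped for Hspa8 and Hsp90aa1, for Hspe1 and Hspd1, and for Hspa1b and Dnajb1. In the library labelled tamoxifen 3, Hspa1b (73.7) and Hspa1a (0.613) were the lowest of the 10. Together the 10 genes took 0.768%, 0.842% and 0.953% of the reads of named genes in oil and 0.981%, 0.959% and 0.862% in tamoxifen.

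The library labelled tamoxifen 1 moved with its GC trend for some of these genes and not for others. It was the highest of the 6 libraries for 5 of the 10 genes and the lowest for 2, beside 41.1% and 41.6% of all genes tested. For Bag3 (56.1% GC) it lay 0.50 above the median of the other libraries on the log2 scale, and 0.08 below it (-0.08) after a correction for GC content. For Hspa8 (45.9% GC) it lay 0.83 above before and 1.36 above after the correction, and for Hsph1 (47.3% GC) 0.69 and 1.02. Hsp90aa1 (43.7% GC) shifted most, from 0.02 to 0.91. For Hspa1a (58.9% GC) it was at -0.45 before and -1.30 after, and for Hspa1b (58.1% GC) at 0.51 and -0.26. With the correction the log2 differences between the groups were -3.98 for Hspa1a, -2.26 for Hspa1b and 0.65 for Hspa8.

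**Figure D4:**
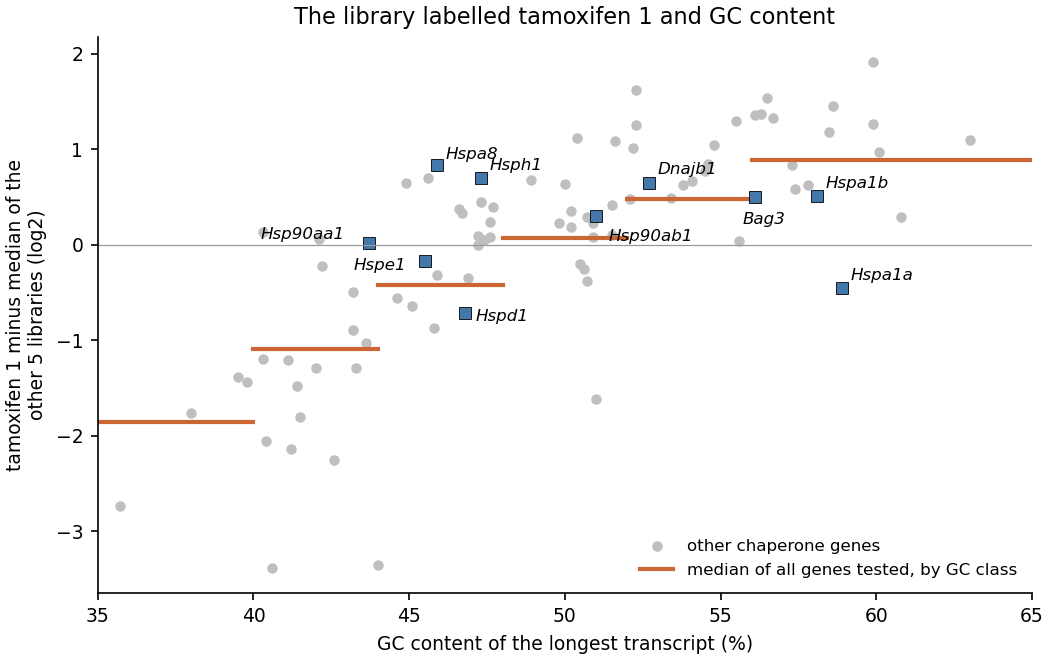
Deviation of the library labelled tamoxifen 1 from the median of the other 5 libraries (log2) against the GC content of the longest transcript, for the heat shock genes (blue squares) and the other chaperone genes tested (grey), with the median of all genes by GC class as bars. The bars rise from -1.86 to 0.889, Hspa8, Hsph1 and Hsp90aa1 lie well above the bar of their class and Hspa1a lies below it.

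The order of the libraries was also counted, after the values had been seen, and tamoxifen 1 was left out of it. Oil 3 was the highest oil library for 9 of the 10 genes (37.0% of all genes tested), the exception being Bag3. Oil 1 was the lowest oil library for 8 (36.7% of all genes), the exceptions being Hsp90ab1 and Hspe1, and tamoxifen 3 lay below tamoxifen 2 for all 10 (56.5% of all genes). All these orders held at once for 7 of the 10 genes and for 16.8% of all genes. For Hspa1a and Hspa1b this order is part of the spread on which the list was selected, and without them the counts were 7, 6 and 8 of 8, with all orders at once in 5 of 8. Among the other lists it was most frequent for the chaperones of the endoplasmic reticulum, 14 of 16, the exceptions being Dnajb9 and Hspa13. Hspa5, which encodes the ER chaperone BiP, had 8871, 11369.8 and 13241 normalized counts in oil and 12064 and 9349 in tamoxifen 2 and 3. It held for 8 of 18 further HSF1 targets, 11 of 25 HSP70 and HSP90 cochaperones, 4 of 12 mitochondrial chaperones and proteases, 2 of 8 TRiC subunits and 2 of 16 immediate early genes. Genes of a list are not independent of each other within a library, so these counts describe the libraries and carry no p.

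**Figure D5:**
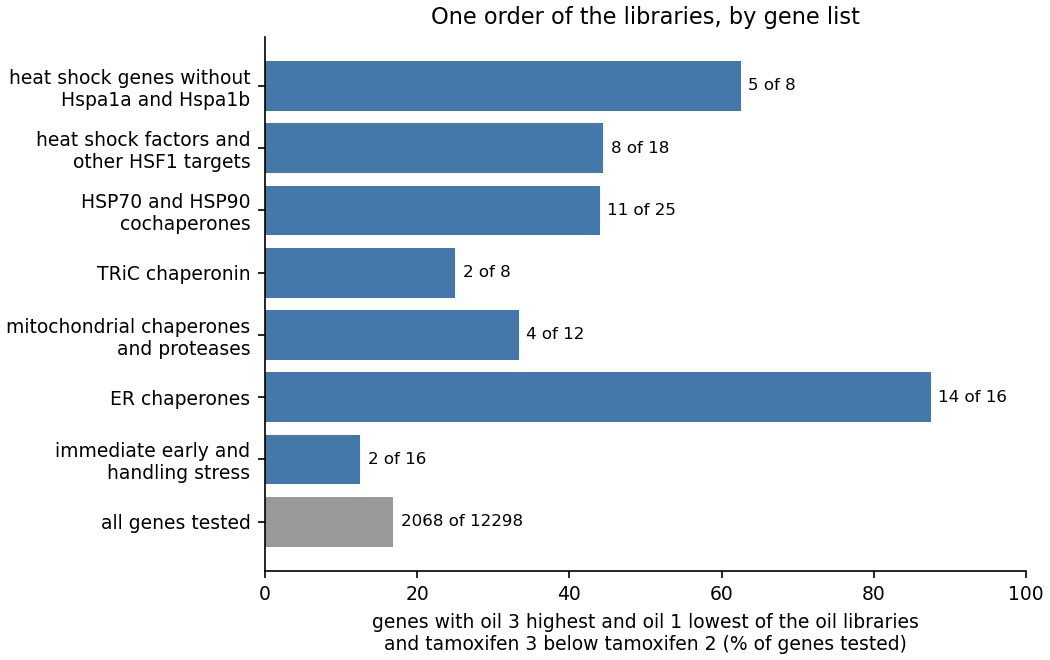
Percentage of genes in each list for which oil 3 was the highest and oil 1 the lowest oil library and tamoxifen 3 lay below tamoxifen 2, with the number of genes beside each bar. Hspa1a and Hspa1b are left out of the heat shock genes (5 of 8), and all 6 chaperone lists, from TRiC (2 of 8) to the ER chaperones (14 of 16), lie above all genes tested (2068 of 12298), with the immediate early genes (2 of 16) below.

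The regulators and further targets of the response did not pass the test. Hsf1 had 1453, 1476 and 1601 normalized counts in oil and 2069, 1480.1 and 1270.4 in tamoxifen, with a log2 difference of 0.06 (limma adjusted p = 0.888), which turned to -0.14 without tamoxifen 1. Hsf2, the second heat shock factor, had 0 to 4.55 normalized counts and was not tested. The small heat shock genes Hspb1, Hspb8 and Cryab and the collagen chaperone Serpinh1 were at 0 to 5.11 in every library, and Hspa1l, the testis-enriched neighbour of Hspa1a, was at 5.05 to 13.9. None of the 18 tested heat shock factors and other HSF1 targets passed the limma threshold in either direction, and their median log2 difference was 0.03, with 12 above 0 and 6 below. Among the smallest p values were those of Hspa4l, an HSP110 relative (log2 difference -0.63, limma adjusted p = 0.666) and Dedd2 (0.51, limma adjusted p = 0.666). For both, the library labelled tamoxifen 1 was the extreme one, and without it the differences were -0.23 and 0.07.

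The other chaperone lists gave 0 genes past the limma threshold too. Of 25 cochaperones 16 were above 0 and 9 below (median log2 difference 0.12, and -0.03 without tamoxifen 1). Fkbp5, an HSP90-binding immunophilin and a glucocorticoid target, had 37.7, 16.4 and 14.9 normalized counts in oil and 67.7, 31.3 and 70.9 in tamoxifen (log2 difference 1.30, SE 0.50, limma adjusted p = 0.666). The J-domain genes Dnajb5 (0.69, limma adjusted p = 0.666) and Dnajb2 (0.51, limma adjusted p = 0.666, and 0.31 without tamoxifen 1) were higher in all 3 tamoxifen libraries than in any oil library, as was Bag1 (3 of 25, beside 7.86% of all genes tested). Bag4 and Ttc4 were lower in all 3 (2 of 25, beside 9.69%). The log2 differences were 0.33 for Bag1, -1.25 for Bag4 and -0.30 for Ttc4. Without tamoxifen 1 they were 0.06, -0.17 and -0.21, and that of Dnajb5 was 0.49. The 8 subunits of TRiC, the cytosolic chaperonin that folds actin and tubulin, had a median of -0.01, the smallest p values being those of Tcp1 (-0.49), Cct4 (-0.28) and Cct8 (-0.45), each lowest in tamoxifen 1. Without it the median was -0.07 and these genes were at -0.11, -0.09 and -0.01. The 12 mitochondrial chaperones and proteases had a median of 0.07, with the smallest p values for Yme1l1 (-0.75), Htra2 (0.46) and Clpb (0.48), which without tamoxifen 1 were at -0.21, 0.14 and 0.14 (median 0.04). The 16 ER chaperones had a median of 0.02, with the smallest p values for Hyou1 (0.52), Hspa13 (-0.54) and Calr (0.29), which without it were at 0.14, -0.10 and 0.12 (median 0.03). Without the library labelled tamoxifen 1, 41 of all genes tested (0.333%) were called and none of them was in these lists.

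The immediate early and handling stress genes were listed because they, like Hspa1a, respond to the handling of cells. Of 16 tested, 11 were above 0 and 5 below, with a median log2 difference of 0.18 (-0.08 without the library labelled tamoxifen 1) and none past the limma threshold. Hmox1, the heme-degrading oxidative stress enzyme, had 64.7, 35.7 and 31.6 normalized counts in oil and 115, 110.1 and 149 in tamoxifen (log2 difference 1.54, limma adjusted p = 0.666). Klf2, a zinc finger transcription factor, had 87.1, 30.9 and 26.9 in oil and 12.8, 11.1 and 10 in tamoxifen (-1.81, limma adjusted p = 0.666). With Gadd45b, which was higher in every tamoxifen library, these were 3 of 16 genes whose groups did not overlap, beside 17.6% of all genes. The highest oil library of Hmox1 and Klf2 was oil 1, the lowest for Hspa1a. Fos and Jun, subunits of AP-1, were the only 2 of the 16 with the order of Hspa1a within each group, tamoxifen 1 aside, beside 16.8% of all genes tested. Fos had 220.1, 231 and 241 normalized counts in oil and 553, 187 and 129 in tamoxifen, and Jun 323, 436 and 513 and 1270.4, 395 and 215. Junb, an AP-1 subunit, had 1927, 2946 and 2312 in oil and 9381, 2875 and 3174 in tamoxifen (0.90, limma adjusted p = 0.666, and 0.36 without tamoxifen 1), with tamoxifen 1 far above the rest.

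The genes whose profile over the 6 libraries lay nearest to that of Hspa1a were found by the root mean square distance between log2(value + 1) profiles, each centred on its own mean. Hspa1b was the nearest at 1.15. The next were Pdgfc (1.77), Gkn3 (1.78), Cib2 (1.84), Rpl13-ps6 (1.86), Prcd (1.86), Rnd1 (1.89), Tle2 (1.91), Gm9824 (1.91) and Rps15-ps2 (1.91). Of these, Rpl13-ps6, Prcd, Tle2, Gm9824 and Rps15-ps2 were near the floor, with 2 to 19 recovered reads per library and 2 or 3 in tamoxifen 3. Their nearness rests largely on such low values. Gkn3 had 268, 566 and 289 normalized counts in oil and 125, 203 and 65.5 in tamoxifen, and Pdgfc, a growth factor gene, 31.4, 59.8 and 35.3 and 17.9, 24.2 and 7.28. In both the highest oil library was oil 2, not oil 3. A profile with no change at all would lie at 2.53, and the other 8 heat shock genes lay at 2.48 (Hsph1) to 2.58 (Hspd1), about where flat profiles lie, so this distance says little about their likeness to Hspa1a.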

How the data were processed

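The groups and replicate numbers are those of the sample labels. The authors processed the reads with STAR and DESeq2 on mm10, per the labels. The annotation, counter, strand setting and filters are not given in the sources used here, and the library kit in the labels is one made for DNA. The deposited values are a normalized signal, in which the authors divided read counts per gene by 1 size factor per library. Whole reads were recovered by dividing by the value of 1 read, and 100% of values came out whole within 0.1. Of the 55450 table rows, 1832 had no gene name (0.0400% to 0.0614% of reads) and were left out. By symbol, 51944 named rows matched GENCODE (GRCm38).

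Differences were tested with limma 3.58.1 (R 4.3.3, two-sided, mean-variance trend) on log2(value + 1), which understates changes of low genes, with Benjamini-Hochberg adjustment over 12298 genes and a threshold of 0.05. On simulated data with 200 genes changed by 2 on the log2 scale, limma recovered 98.5% of the changes with 7 false calls over 12298 genes. The simulation gave every gene the same spread (negative binomial dispersion 0.05) and held no library set apart like tamoxifen 1. It checks the fit and does not give the power to find smaller changes in these libraries. Alternatives were edgeR 4.0.16 and DESeq2 1.42.0 on recovered reads, TMM and upper-quartile scaling, pseudocounts of 0.5 and 5, no filter, 1 CPM in 3 libraries, a GC correction (loess, span 0.3), the replicate number as a block, both together, and each library left out. edgeR called 0 genes.

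The 10 genes and all lists were chosen with earlier results of these data known. Besides these genes, Usp18, Hsf1 and Hsf2, the text names by rule the 3 smallest p values of each chaperone list and of the immediate early list, and the 10 genes nearest to Hspa1a. Other genes were named after their values were seen. The results of 2 genes are not reported here. Exact intervals of ratios and shares of reads cover counting error only (those of log2 differences are limma's), since reads carry no molecular identifiers and PCR copies are counted.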

Additional observations from a re-analysis of the deposited data

How the results depend on the processing

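None of the 8 genes other than Hspa1a and Hspa1b passed the threshold under any of the 17 alternatives. The number of all genes past it was 0 in limma, 71 with DESeq2 (69 higher, 2 lower) and 2 with the GC correction, and 0 to 41 when 1 library was left out (41 without the library labelled tamoxifen 1). With DESeq2 the median of all genes was 0.107 on the log2 scale. That fit covered 24247 genes in place of 12298. Its count and median therefore changed with the tool and the gene set together. Some of the differences changed in sign or size. Hspe1 (-0.00) was 0.02 in edgeR, 0.00 in DESeq2, 0.07 with upper-quartile scaling, 0.20 with the GC correction and -0.13 to 0.10 with 1 library left out. Hspd1 (-0.06) was 0.01 in edgeR, 0.01 with upper-quartile scaling, 0.06 with the GC correction and -0.27 to 0.22 with 1 library left out. Bag3 (0.18) was -0.04 with the GC correction. Hsp90aa1 (0.04) was 0.33 with the GC correction. With 1 library left out, Hsp90aa1 was -0.06 to 0.15 and Dnajb1 -0.07 to 0.28. The cause was not tested. The span of Hspa1a (7.94) was 3.64 to 7.94 with 1 library left out, the lowest without the library labelled tamoxifen 3.

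The deviations of samples with the same replicate number had correlations of -0.02, 0.06 and -0.15. The tamoxifen library that stood apart with its GC trend was included, so these values cannot decide whether the numbers pair the samples. With the replicate number as a block, 0 genes passed, as without it. With the block and the GC correction, Hspe1 was 0.20, Hspd1 0.06 and Bag3 -0.04. The 2 recovered reads of Hspa1a in the library labelled tamoxifen 3 limit every ratio that uses it.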
